A study of Mus musculus with 3 samples.

Results

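The comparison described here sets 4T1 cells sorted from metastatic lung (the array labelled MCC) against 4T1 cells sorted from the primary breast tumour (the array labelled PCC). Its members are the genes with a named probe whose detection p-value lay under 0.01 on at least 1 of the 2 arrays, which gave 8863 of 16593 genes, measured by 11785 of 23978 named probes. 4T1 is a mammary carcinoma line of the Balb/C mouse. Per the labels, the cells carried GFP, grew from an implant in the mammary pad of female Balb/C mice aged 10 to 12 weeks, and were purified by flow cytometry. The remaining array, labelled CCC, holds cells purified from the circulation in the same model, and it serves below as a separate look at genes picked on the other arrays. There is 1 array per label, the sources used here do not say how many mice stand behind each or whether cells were pooled, and no array of uninjected tissue or cultured cells was analysed here. With no replicate, no difference has a replicate check or a p-value. Values are background-corrected, quantile-normalized log2 intensities, called levels below, unless they are named as deposited intensities.

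When a 4T1 tumour spreads, cells leave the mammary fat pad, travel in blood and settle in the lung, an organ of thin alveolar epithelium, secretory and ciliated airway cells, dense capillaries and resident macrophages. The mammary pad itself is made of white fat cells, ducts with an inner luminal and an outer basal cell layer, vessels, and a lymph node that lies within the fat. Lymph nodes are filled with B and T cells, which enter through tall venules that make a sulphated mucin and the chemokine CCL21. A sort for GFP should leave most of these host cells behind. Genes of each tissue were thus followed as marker lists, beside lists of cell programs such as mitosis.

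Of 25697 probes in all, 11301 (44.0%) were detected on MCC and 10532 (41.0%) on PCC, with mean deposited intensities of 232 on MCC and 410 on PCC. The lowest detected level was 5.60 on MCC and 5.88 on PCC. Both arrays detected 6834 genes, of which 973 (14.2%) were at least 2-fold higher on MCC, 1434 (21.0%) at least 2-fold lower and 4427 (64.8%) within 2-fold. Differences of at least 4-fold were found for 357 genes (5.22%) in the higher direction and 384 (5.62%) in the lower. A further 1374 genes (15.5%) were detected on MCC only, and 655 (7.39%) on PCC only. For these a fold is a lower bound, taken against the lowest detected level of the dim array or the probe's own level there, whichever is higher. Counting such bounds, 1599 of the 8863 genes (18.0%) were at least 2-fold higher on MCC and 1748 (19.7%) at least 2-fold lower. These shares are the background for the counts of each list below, which use the same rule. A gene detected on 1 array was in most cases chosen by the array where it is brighter, so the list counts describe these arrays and support nothing further. Where the dim array's own level left no room, the bound is 0 and the gene is counted as neither higher nor lower. Members at background on both are counted as not detected. Of the genes past 2-fold on both arrays, 40.4% were higher on MCC, against 14.8% with no normalization between arrays and 50.5% with no filter on dim probes. The median difference over genes detected on both was -0.16, and it was -0.75 with no normalization between arrays, so a difference is relative to the rest of the array. In such bulk samples, fewer cells of a type and less RNA per cell cannot be told apart.

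**Figure D1:**
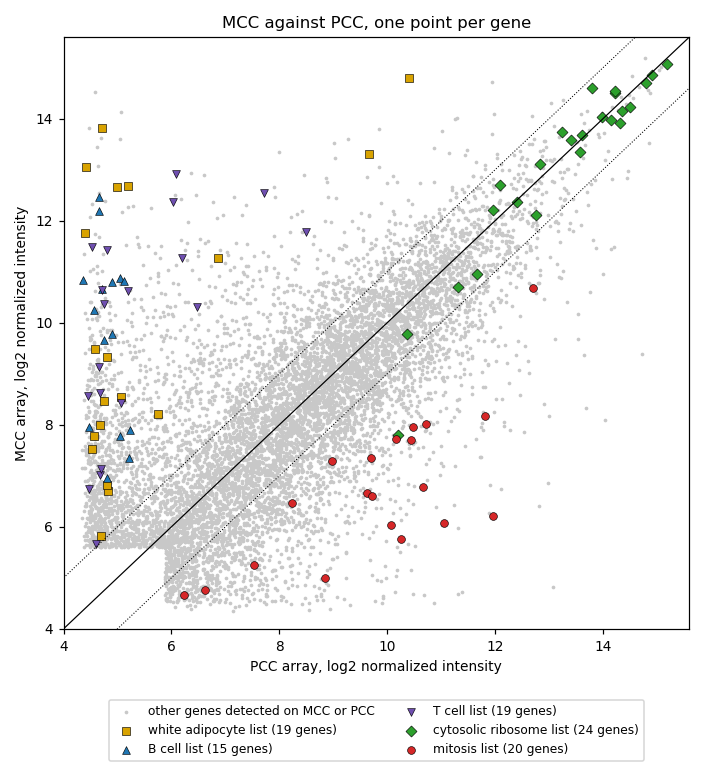
Each point is 1 of the 8863 genes, with its normalized log2 intensity on PCC (horizontal) and on MCC (vertical), a solid line at equal level and dotted lines at 2-fold. Of the 24 ribosomal genes 23 lie between the dotted lines, the 20 mitosis genes lie below it, and the adipocyte, B cell and T cell genes lie above it, most of them far above and at background on PCC.

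The label of MCC names lung, and several defining genes of lung epithelium were at background on it. Sftpc and Sftpb, the surfactant proteins of alveolar type 2 cells, Nkx2-1, the transcription factor of lung epithelium, and Scgb1a1, the secretoglobin of club cells, were detected on none of the 3 arrays. Of 10 airway genes with a probe, 2 were detected, the cilia factor Foxj1 on PCC only and the club cell enzyme Cyp2f2 on MCC only, and their summed deposited intensity was 139 on MCC and 68.4 on PCC. Of 5 lung mesenchyme genes, Foxf1 was detected, at 5.66 on MCC and 5.99 on PCC, while Tbx4, Tbx5, Tcf21 and Wnt2 were not. Of 9 alveolar type 2 genes, 3 were detected and 2 were higher on MCC. The remaining detected gene, the surfactant protein Sftpd, was found on MCC only with a bound under 2-fold. Napsa, a protease that lymphoid and other tissues also make, stood at 10.70 on MCC and 6.81 on PCC, and the lipid transporter Abca3 at 10.55 on MCC and 8.79 on PCC. Of 6 alveolar type 1 genes, 3 were detected and all 3 were higher, including Cav1, a caveolar protein shared with endothelium and fat, at 11.86 on MCC and 9.46 on PCC. Ager, the receptor that marks type 1 cells in lung, was at 7.26 on MCC and below detection on PCC. The water channel Aqp5 of type 1 cells and glands was 2.77-fold higher on MCC. The values of Ager, Aqp5 and Abca3 are those of the brightest probe of each. Their probe differences ran from 0.51 to 1.59, from 0.68 to 1.47 and from 0.73 to 1.76 on the log2 scale before bounds. Whether the label fits its sample was not tested, and every direction below is that of the array labelled MCC.

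The genes that MCC lacked most were bright on both PCC and CCC. The 12 largest deficits among genes detected on both arrays had levels of 5.98 to 9.39 on MCC and 11.03 to 14.73 on PCC, and on CCC, which played no part in choosing them, 8.33 to 14.70. Tns4, a focal adhesion protein of epithelial cells, had a deposited intensity of 55.2 on MCC, 8367 on PCC and 5881 on CCC, a level 84.6-fold lower on MCC than on PCC. Nr2f1, an orphan nuclear receptor, had 75.3 on MCC, 9309.9 on PCC and 7699 on CCC. Mgp, the matrix Gla protein that holds back calcification, had 180.1 on MCC, 18456 on PCC and 12100.0 on CCC. For all 3 genes, CCC lay much nearer to PCC than to MCC, and MCC was far below either. Slpi, a secreted inhibitor of leukocyte proteases, had 424 on MCC, 30997 on PCC and 31031 on CCC, and it was 40.4-fold lower on MCC. The other genes were Lgals7, a galectin of stratified epithelium (49.0-fold lower), the ligand Wnt7b (41.1-fold lower), the pyrophosphate transporter Ank (41.0-fold lower), Kdelr3, which returns proteins to the endoplasmic reticulum (40.3-fold lower), the protease inhibitor Timp1 (33.8-fold lower), the mitotic genes Anln and Pbk, and Itih2, a carrier of hyaluronan. Across the 12, the deposited intensity on MCC was 0.66% to 1.75% of that on PCC. On CCC it was 65.6% to 108% of PCC for all but Itih2, at 16.3%.

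A second set was detected on PCC and not on MCC. The 10 largest bounds had levels of 4.50 to 5.51 on MCC, all under the lowest detected level, and 10.16 to 13.07 on PCC, and all 10 were detected on CCC, at 9.03 to 12.44. Esm1, a proteoglycan of angiogenic endothelium, had a deposited intensity of 7.58 on MCC, 10254 on PCC and 7105 on CCC, which made it at least 178-fold lower on MCC. Tslp, the epithelial cytokine that starts type 2 immune responses, had 3.30 on MCC, 2870.2 on PCC and 1844 on CCC. Inhba, the activin subunit, had 15.9 on MCC, 1535 on PCC and 635 on CCC. All 3 were thus bright on both other arrays and at background on MCC. The set also held the neural genes Slc6a2, Artn and Bdnf (the noradrenaline transporter, the GDNF-family ligand artemin and a neurotrophin), the small secreted protein Ecrg4, Acsl4, which activates arachidonic acid, the collagenase Mmp13 and Ankrd1, a target of YAP. Their bounds ran from at least 23.6-fold lower for Ankrd1 to at least 55.1-fold lower for Ecrg4. The bounds of Slc6a2, Artn and Bdnf rest on their brightest probe, and the differences of all probes of each gene ran from -6.37 to -1.05, from -6.01 to -1.59 and from -5.81 to -1.61 on the log2 scale before bounds.

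Of the 384 genes at least 4-fold lower on MCC, 384 were detected on CCC, where 98.9% of all genes detected on both MCC and PCC were detected too. These 384 had median levels of 7.10 on MCC, 10.02 on PCC and 9.74 on CCC. Of the 655 genes detected on PCC only, 529 (80.8%) were detected on CCC. This share is below that over all 8863 genes, of which 1024 were not detected on CCC. Genes could also be ranked by their level on CCC alone, which neither array of the comparison shares. In the brightest of 4 equal bins of CCC level, 25.8% were at least 2-fold lower on MCC and 10.4% at least 2-fold higher, while in the dimmest bin 14.0% were lower and 22.3% higher. The share at least 4-fold lower was 9.59% in the brightest bin and 1.58% in the dimmest. Levels on CCC were 5.54 to 7.06 in the dimmest bin. Genes as dim on PCC lie close to the lowest detected level of MCC and have little room to be lower. The contrast between bins was not separated from this limit. The share within 2-fold was 63.8% in the brightest bin and 63.7% in the dimmest, so most genes bright on CCC stayed within 2-fold on MCC.

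Mitosis genes were lower on MCC almost without exception. Of 30 with a probe, 20 were detected on MCC or PCC, 19 were at least 2-fold lower and 0 higher, with a median of -2.72 with bounds, against -0.03 for all genes. All 20 were detected on CCC, and the median levels were 6.63 on MCC, 10.12 on PCC and 10.03 on CCC. Anln, the actin-binding scaffold of the contractile ring, stood at 6.21 on MCC and 11.97 on PCC, although its probes differed, with differences from -5.75 to -1.93. Pbk, a mitotic kinase, stood at 6.07 on MCC and 11.06 on PCC, a level 31.8-fold lower. Aurka, the kinase of the spindle poles, had a deposited intensity of 32.0 on MCC, 1362 on PCC and 1232 on CCC, 22.5-fold lower on MCC. The kinase that drives entry into mitosis, Cdk1, was 16.5-fold lower, topoisomerase Top2a, which untangles chromosomes, 14.9-fold lower and the midzone protein Prc1 12.6-fold lower. Cenpa, the histone variant of centromeres, stayed well above background, at 10.69 on MCC and 12.70 on PCC. Melk, detected on PCC only, had a bound under 2-fold, and the other 10 genes with a probe, Bub1, Ccna2 and Ccnb2 among them, were at background on both arrays.

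The promoters of 3 of these genes are shown because a CCAAT box and a cell cycle homology region, TTTGAA, are known elements of G2 and mitotic promoters. They were chosen by their deficit on MCC among the mitosis genes at least 2-fold lower whose window holds both motifs. Their matches were thus set by that choice, and Anln and Pbk, with larger differences, are not shown. Each window holds 250 bases before to 50 bases after the start of the gene in RefSeq (GRCm38.p6), read 5′ to 3′ on the gene's strand, with CCAAT or its reverse complement ATTGG and TTTGAA or its reverse complement TTCAAA in capitals. The windows are chr2:172370521-172370820 (minus strand) for Aurka, chr10:69352863-69353162 (minus strand) for Cdk1 and chr11:99024140-99024439 (minus strand) for Top2a.
Aurka: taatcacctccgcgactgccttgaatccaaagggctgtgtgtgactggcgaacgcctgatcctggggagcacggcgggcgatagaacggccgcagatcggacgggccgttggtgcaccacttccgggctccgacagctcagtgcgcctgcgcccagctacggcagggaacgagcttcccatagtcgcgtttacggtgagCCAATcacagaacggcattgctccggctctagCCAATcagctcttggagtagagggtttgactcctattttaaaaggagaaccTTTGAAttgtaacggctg
Cdk1: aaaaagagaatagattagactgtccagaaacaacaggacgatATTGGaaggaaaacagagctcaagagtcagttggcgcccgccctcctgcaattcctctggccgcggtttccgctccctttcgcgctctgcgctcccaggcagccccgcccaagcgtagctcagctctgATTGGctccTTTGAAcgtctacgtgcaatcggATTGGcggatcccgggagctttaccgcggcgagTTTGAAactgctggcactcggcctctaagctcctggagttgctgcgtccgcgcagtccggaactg
Top2a: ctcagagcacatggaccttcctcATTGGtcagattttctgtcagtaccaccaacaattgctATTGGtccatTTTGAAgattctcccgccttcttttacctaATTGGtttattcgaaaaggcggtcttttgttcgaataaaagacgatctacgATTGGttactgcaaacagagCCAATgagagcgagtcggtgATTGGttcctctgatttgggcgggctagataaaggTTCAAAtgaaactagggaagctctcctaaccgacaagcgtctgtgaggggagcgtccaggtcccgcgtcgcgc
Aurka held 2 CCAAT and 1 TTTGAA matches, Cdk1 3 and 2, and Top2a 6 and 2, counting both strands, and these 3 genes were 22.5-fold, 16.5-fold and 14.9-fold lower on MCC. Of the 19 mitosis genes at least 2-fold lower, 17 had a window and 12 held both motifs. Over the 19 windows of detected mitosis genes, 68.4% held CCAAT, 78.9% TTTGAA and 68.4% both, while of 32851 windows of all genes 37.4%, 17.9% and 6.95% did. Of 9255 windows of genes detected here, 37.6% held CCAAT, 11.7% TTTGAA and 4.73% both. A match describes the letters of the window and is not a measured binding site.

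**Figure D2:**
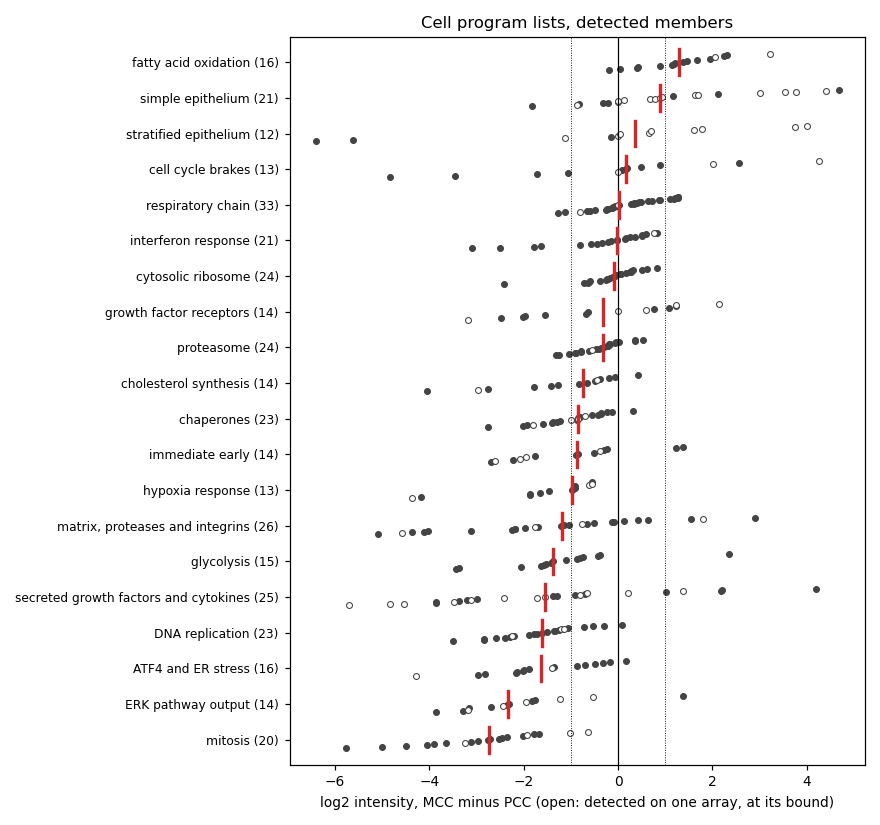
Each row is a list of genes of a cell program, some of them shared by all cells. Each point is a member's log2 difference, MCC minus PCC. Points are open for genes detected on 1 array and placed at their bound, with a red bar at the list's median and dotted lines at 2-fold. Mitosis, ERK pathway output and DNA replication lie to the left of 0, cytosolic ribosome, interferon response and respiratory chain are centred near it, and fatty acid oxidation lies to the right.

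DNA replication genes followed the mitosis genes with smaller differences. Of 26 with a probe, 23 were detected, 19 were at least 2-fold lower on MCC and 0 higher, with a median of -1.61. E2f1, a transcription factor of S-phase genes, stood at 7.22 on MCC and 10.71 on PCC. The helicase subunit Mcm6 stood at 7.63 on MCC and 10.48 on PCC, and Uhrf1, which maintains DNA methylation, at 8.75 on MCC and 11.57 on PCC. Each was detected on MCC and well below its level on PCC. Other members differed less, with Mcm4 at 10.57 on MCC and 11.29 on PCC, and the flap endonuclease Fen1 at 9.29 on MCC and 9.20 on PCC. Median levels of the list were 7.26 on MCC, 9.20 on PCC and 9.21 on CCC.

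Genes that restrain the cell cycle differed in both directions. Of 13 detected of 18, 3 were at least 2-fold higher on MCC and 4 lower, with a median of 0.16 that became -0.41 with no normalization between arrays. Cdkn1c, which encodes the CDK inhibitor p57, stood at 10.14 on MCC and under detection on PCC, at least 19.2-fold higher. Cdkn2b (p15) was at least 4.04-fold higher, its relative Cdkn2c (p18) 3.30-fold lower, and Klf2, a quiescence factor of endothelium and T cells, stood at 11.25 on MCC and 8.70 on PCC. Gadd45a, a stress-induced growth arrest gene, stood at 8.17 on MCC and 13.00 on PCC, 28.6-fold lower. Klf4, a factor of epithelial differentiation, was 10.9-fold lower. Btg1, an antiproliferative gene abundant in resting lymphocytes, was nearly level, at 13.18 on MCC and 13.02 on PCC. The 2 probes of Cdkn2a, the locus of p16 and p19ARF, were not detected on any array, and Trp53 has no probe here.

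Secreted growth factors and cytokines were mostly lower on MCC. Of 32 with a probe, 25 were detected, 15 at least 2-fold lower and 5 higher, and 10 were detected on PCC only. Beside Tslp and Inhba, the cytokine Il11 stood at 4.72 on MCC and 10.14 on PCC, at least 23.3-fold lower. The matricellular protein Ccn2 (CTGF) had deposited intensities of 709 on MCC, 13545 on PCC and 10402 on CCC, 10.3-fold lower on MCC. The neutrophil chemokine Cxcl1 was 14.5-fold lower, the growth factor Igf2 14.5-fold lower, Pdgfa 7.89-fold lower and Vegfc 9.15-fold lower. Some members lay on the other side, and which cells made them was not tested. Ccl5, the chemokine of T and NK cells, stood at 13.23 on MCC and 9.03 on PCC, Pdgfb, which endothelium secretes, at 9.27 on MCC and 7.08 on PCC, and Il33, an alarmin of stroma and endothelium, at 9.01 on MCC and 6.83 on PCC. Vegfa was 1.89-fold lower, and Lcn2, the siderophore-binding lipocalin, had 10.21 on MCC and 10.91 on PCC.

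Matrix, protease and integrin genes followed the same direction. Of 26 detected of 29, 15 were at least 2-fold lower on MCC and 3 higher, with a median of -1.18. Itga3, the laminin-binding integrin chain, stood at 7.37 on MCC and 11.74 on PCC, 20.7-fold lower. The stromelysin Mmp3 was 17.2-fold lower, the collagen lysyl hydroxylase Plod2 16.4-fold lower and the urokinase receptor Plaur 8.71-fold lower. Mmp14, the membrane-bound metalloprotease, was 2.32-fold lower, at 11.12 on MCC and 12.34 on PCC. On the other side, Timp3, a matrix-bound inhibitor, stood at 10.46 on MCC and 7.55 on PCC. The collagen cross-linker Lox was 2.91-fold higher, and the laminin chain Lamb3 at least 3.48-fold higher. Sparc, a matrix protein of stroma and endothelium, had 11.68 on MCC and 11.75 on PCC, and the integrin chain Itga6 7.08 on MCC and 6.96 on PCC, so both were nearly level.

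Genes that the ERK pathway induces were among the most uniformly lower. Of 14 detected of 17, 12 were at least 2-fold lower on MCC and 1 higher, with a median of -2.32. Ccnd1, the G1 cyclin, had deposited intensities of 929.8 on MCC, 16233 on PCC and 14295 on CCC, 8.89-fold lower on MCC. Emp1, a membrane protein of epithelia, was 14.6-fold lower, and the ETS factor Etv4 9.70-fold lower. Epha2, an ephrin receptor, stood at 4.69 on MCC, below detection, and 8.77 on PCC. Dusp6, the phosphatase that restrains ERK, stood at 10.89 on MCC and 13.19 on PCC. The exception was Egr1, a zinc finger factor that cell handling also induces, at 11.08 on MCC and 9.71 on PCC. Growth factor receptors were divided, with 5 of 14 detected at least 2-fold lower and 4 higher. Axl, a receptor kinase of invasive cells, stood at 11.14 on MCC and 13.15 on PCC, and Bmpr1a at 7.62 on MCC and 10.10 on PCC, whereas Egfr was detected on MCC only, at least 4.41-fold higher, Fgfr2 at least 2.35-fold higher and Notch1 2.35-fold higher.

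Genes of glucose use, hypoxia and stress leaned to the lower side, with members of each list near level. Of 15 glycolysis genes detected of 18, 9 were at least 2-fold lower on MCC and 1 higher. The glucose transporter Slc2a1 stood at 9.08 on MCC and 12.44 on PCC and hexokinase Hk2, which traps glucose in the cell, at 9.68 on MCC and 13.12 on PCC, while Slc2a3, the transporter of leukocytes and neurons, stood at 8.80 on MCC and 6.46 on PCC. Gapdh, an enzyme of the pathway's lower part, was 1.81-fold lower, and the enolase Eno2 4.15-fold lower. Of 13 hypoxia-response genes detected of 16, 6 were at least 2-fold lower and 0 higher. Car9, the membrane carbonic anhydrase, was at least 20.7-fold lower by its brightest probe, and Egln3, an oxygen-sensing prolyl hydroxylase, 18.2-fold lower. Probes of these 2 genes spread from -4.74 to -1.87 for Car9 and from -4.18 to -1.75 for Egln3 on the log2 scale. Vegfa and Kdm3a, a histone demethylase, lay just inside 2-fold, each 1.89-fold lower. The MYC antagonist Mxi1 was 3.66-fold lower, and Bnip3l, a receptor for mitophagy, stood at 11.13 on MCC and 11.69 on PCC.

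Of 16 genes of the ATF4 and endoplasmic reticulum stress pathways detected of 19, 10 were at least 2-fold lower on MCC and 0 higher. Chac1, which degrades glutathione, was at least 19.5-fold lower, the cystine importer Slc7a11 7.87-fold lower and the chaperone Calr 7.01-fold lower. The stress genes Xbp1 and Herpud1 were nearly level, at 11.61 and 11.65 on MCC and at 11.93 and 11.48 on PCC. Of 23 chaperones detected of 24, 9 were lower and 0 higher. Hspa5 (BiP), the main chaperone of the endoplasmic reticulum, stood at 5.87 on MCC and 8.62 on PCC, while the cytosolic Hspb1 stood at 9.01 on MCC and 8.70 on PCC. Cct5, of the ring that folds actin and tubulin, was 4.04-fold lower, Hsph1 3.78-fold lower, and the constitutive Hspa8 1.28-fold lower by its brightest probe, with probe differences from -1.41 to -0.36. Of 14 cholesterol synthesis genes detected of 15, 6 were lower and 0 higher. Squalene epoxidase Sqle was 16.6-fold lower, the demethylase Cyp51 was at least 7.84-fold lower, and Hmgcs1, at the entry of the pathway, had 11.73 on MCC and 12.21 on PCC. Hsd17b7, a later enzyme, was 6.78-fold lower and the kinase Pmvk 1.34-fold higher. Of 14 immediate early genes detected of 19, 6 were lower and 2 higher, with Atf3 at least 6.05-fold lower and Zfp36, which destabilises cytokine mRNAs, 2.35-fold higher. Ier3 was 6.50-fold lower, the phosphatase Dusp1 4.68-fold lower, and Klf6 stood at 10.93 on MCC and 11.17 on PCC.

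Ribosome and proteasome genes, shared by all cells, were kept on MCC. Of 24 cytosolic ribosome genes detected of 29, 23 were within 2-fold, with a median of -0.08. The 8 genes brightest on PCC among those nearly level between the arrays were Rplp1, Rpl41, Rps20, Rpl38, Rps24, Rpl37, Rpl9 and Fth1, which encodes the heavy chain of ferritin. Rps24 was nearly level by its brightest probe only, with probe differences from -2.81 to -0.28. Rplp1 had 15.07 on MCC and 15.19 on PCC, Rpl41 15.01 on MCC and 15.07 on PCC, and Fth1 14.62 on MCC and 14.67 on PCC. These genes lie near the top of the intensity range of both arrays, where quantile normalization sets the highest levels alike. In deposited intensity Rplp1 had 28709 on MCC and 38305 on PCC. Rplp0, a stalk protein, was the 1 ribosomal gene past 2-fold, at 7.79 on MCC and 10.20 on PCC. The members next to it were Rpl22 (1.64-fold lower) and Rps2 (1.56-fold lower), and at the other end lay Rps27 (1.76-fold higher), Rps15 (1.53-fold higher) and Rps16 (1.42-fold higher). Of 24 proteasome subunits detected of 26, 21 were within 2-fold and 3 lower, namely the lid subunit Psmd14 (2.48-fold lower) and the core subunits Psmb5 (2.38-fold lower) and Psmb7 (2.04-fold lower, with probe differences from -1.88 to -0.37). The ubiquitin receptor Psmd4 stood at 13.10 on MCC and 12.56 on PCC, and Psmb3 and Psmc4 were each 1.28-fold higher. With no normalization between arrays the medians of the ribosome and proteasome lists were -0.80 and -1.20, close to or below the -0.75 of all genes.

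Genes induced by interferon or serving antigen display on MHC class I were mostly kept too. Of 21 detected of 23, 17 were within 2-fold and 4 lower. B2m, the light chain of MHC class I, had 14.28 on MCC and 14.42 on PCC, the heavy chain H2-D1 9.66 on MCC and 9.07 on PCC, and the peptide transporter Tap1 9.40 on MCC and 8.57 on PCC. The lower members are known targets of type I or gamma interferon. Oasl2 stood at 8.15 on MCC and 11.24 on PCC, Isg15 at 7.52 on MCC and 10.02 on PCC, Ifit3 was 3.44-fold lower and the GTPase Gbp2 3.11-fold lower. The antiviral GTPase Mx1 was detected on MCC only, with a bound under 2-fold.

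The respiratory chain, which carries the question of the series title, was also mostly within 2-fold. Of 33 subunits detected of 35, 6 were at least 2-fold higher on MCC and 2 lower, with a median of 0.03 that became -0.02 in the authors' scaled table, -0.23 with 75th percentile scaling and -0.73 with no normalization between arrays. Ndufs8 and Ndufs7, subunits of complex I, stood at 10.82 and 11.85 on MCC and at 9.55 and 10.58 on PCC. Uqcrc1, a core protein of complex III, stood at 11.36 on MCC and 10.09 on PCC. The lower members were Ndufc2 of complex I, at 10.20 on MCC and 11.48 on PCC, and Sdhd, the membrane anchor of complex II, at 7.84 on MCC and 8.97 on PCC. Atp5b, the catalytic subunit of ATP synthase, stood at 14.09 on MCC and 13.60 on PCC, and Atp5o, of its stalk, was detected on PCC only with a bound under 2-fold. The coactivator Ppargc1a (PGC-1α) was not detected on any of the 3 arrays. Its relative Ppargc1b had a deposited intensity of 260.2 on MCC, 32.9 on PCC and 109.8 on CCC, and the partner receptor Esrra 399 on MCC, 325 on PCC and 378 on CCC.

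Of the 10 largest bounds in the higher direction, 5 belonged to the fat or lymph node lists, 1 to the liver list and the others to none. These genes, detected on MCC only, had levels of 12.67 to 14.53 on MCC and 4.41 to 5.19 on PCC, below the lowest detected level there. Glycam1, the sulphated mucin of lymph node venules that is also made by lactating mammary gland, had a deposited intensity of 16726 on MCC, -2.78 on PCC and 3585 on CCC, at least 402-fold higher on MCC than on PCC. Lpl, the lipoprotein lipase of fat and muscle, had 9621 on MCC, 3.09 on PCC and 185 on CCC. Cidec, which fuses lipid droplets, had 4741 on MCC, -13.1 on PCC and -7.47 on CCC. Glycam1 was clearly present on CCC as well, and Cidec was at background there. The 3 genes of the chemokine CCL21, Ccl21a, Ccl21b and Ccl21c, are near-identical copies, so their probes may read each other's RNA, and each was at least 189-fold higher on MCC. Plin4, a lipid droplet coat protein, was at least 111-fold higher. Cyp2e1 and Ces1d, which are drug- and lipid-metabolising enzymes of liver that adipose tissue also makes, were at least 245-fold and 216-fold higher, and the urinary protein Mup2 at least 146-fold higher. The bound of Mup2 rests on its brightest probe, and its probe differences ran from 2.99 to 8.43 on the log2 scale before bounds. Of the 10, 5 were detected on CCC.

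The 12 largest gains among genes detected on both arrays were led by lymphocyte genes, at 11.62 to 13.35 on MCC and 6.03 to 7.99 on PCC. Satb1, the chromatin organiser of thymocytes, had a deposited intensity of 4239 on MCC, 48.2 on PCC and 1300.4 on CCC, 113-fold higher on MCC than on PCC. Cd3d, a chain of the T cell receptor complex, stood at 12.38 on MCC and 6.03 on PCC, and Gimap6, a GTPase of lymphocytes, at 11.62 on MCC and 6.17 on PCC. Tbc1d10c and Arhgap45, both highest in blood cells, were 95.1-fold and 78.1-fold higher, and Il4i1, an amino acid oxidase of B cells and myeloid cells, 86.9-fold higher. Cd27 and Atp2a3, a lymphocyte receptor and the calcium pump of blood cells, were 65.7-fold and 76.9-fold higher by their brightest probes, although their probes spread from 1.53 to 6.04 for Cd27 and from 1.11 to 6.29 for Atp2a3 on the log2 scale. The other 4 were Ltf, the lactoferrin of milk and neutrophil granules (51.5-fold higher), Gpx3, the secreted glutathione peroxidase (48.5-fold higher), Txnip, the thioredoxin inhibitor (40.8-fold higher), and the mitochondrial protein Chchd10 (39.4-fold higher). On CCC the 12 had levels of 7.02 to 10.32, for each gene between MCC and PCC.

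**Figure D3:**
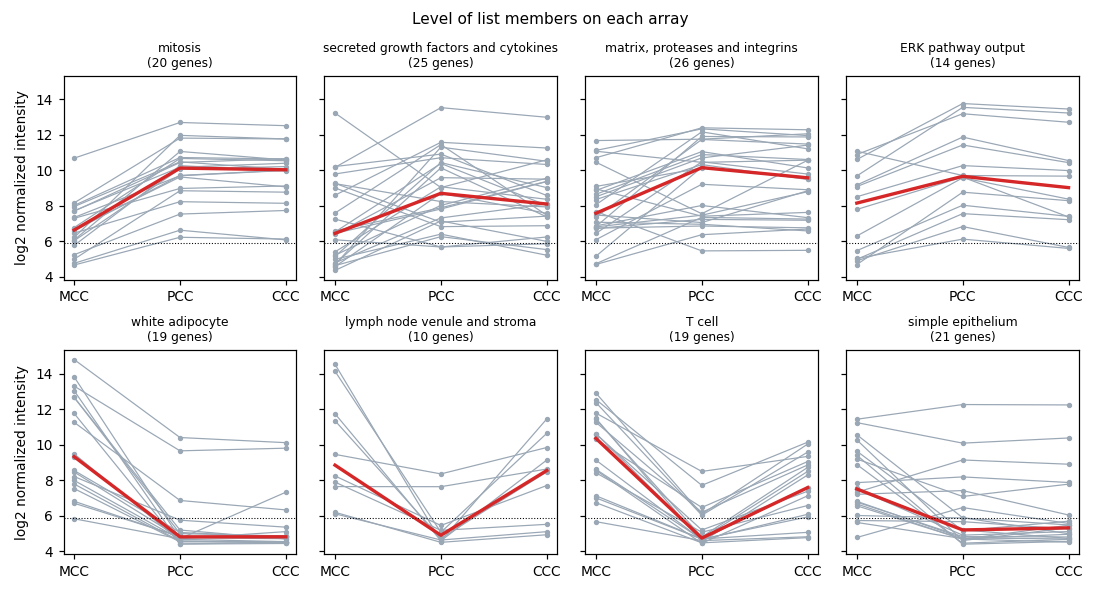
Normalized log2 intensity (vertical) on MCC, PCC and CCC for the detected members of 8 lists, with a grey line per gene, a red line at the list's median and a dotted line at 5.88, the lowest detected level on PCC. Medians of mitosis genes are 6.63 on MCC, 10.12 on PCC and 10.03 on CCC, those of adipocyte genes 9.33, 4.81 and 4.81, and those of T cell genes 10.36, 4.74 and 7.59.

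White fat cell genes were gained across nearly the whole list. Of 22 with a probe, 19 were detected on MCC or PCC, 16 were at least 2-fold higher on MCC and 0 lower, and 16 were detected on MCC only. The summed deposited intensity of the list was 53458 on MCC, 2595 on PCC and 2863 on CCC. Adipoq, the hormone adiponectin that fat cells secrete, had 3565 on MCC, 12.0 on PCC and 12.3 on CCC. Scd1, the fatty acid desaturase, stood at 14.80 on MCC and 10.41 on PCC, and Dgat2, which makes triglyceride, stood at 11.26 on MCC and 6.86 on PCC. The receptor that directs fat cell differentiation, Pparg, was at least 10.9-fold higher and the hormone Lep at least 6.01-fold higher. Fabp4, Cd36 and Retn, abundant in fat, were at background on MCC and on PCC. Brown fat was represented less, with 4 of 10 genes detected. Cidea and Cox8b were detected on MCC only, at least 13.7-fold and 36.2-fold higher, while Ucp1, the uncoupling protein that defines brown fat, was at background. Cox7a1 and Pank1 were within 2-fold, at 7.33 and 7.02 on MCC and at 6.78 and 7.78 on PCC.

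Among the metabolic lists, fatty acid oxidation was the one that was mostly higher on MCC. Of 16 genes detected of 18, 11 were at least 2-fold higher on MCC and 0 lower, with a median of 1.28. Pdk4, the kinase that turns glucose oxidation off, was detected on MCC only and at least 9.35-fold higher. Acaa2, the thiolase, was 4.98-fold higher and the carnitine carrier Slc25a20 4.72-fold higher, with probes that spread from 0.81 to 2.32 and from 0.05 to 2.24 on the log2 scale. Etfb, the electron transfer subunit, stood at 12.00 on MCC and 10.04 on PCC, and Acadvl, the first enzyme for long chains, at 10.85 on MCC and 9.18 on PCC. Etfa, the partner of Etfb, was not higher, at 11.79 on MCC and 11.98 on PCC. The adipocyte markers were higher on the same array, and their part in this list's difference was not tested.

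Lymph node stroma and venule genes were gained beside those of fat. All 10 genes of its list were detected, 7 were at least 2-fold higher on MCC and 0 lower, and the summed deposited intensity was 33744 on MCC, 579 on PCC and 8665 on CCC. Cxcl13, the chemokine that gathers B cells into follicles, had 1966 on MCC, -2.17 on PCC and 684 on CCC. Ccl19, which shares its receptor with CCL21, stood at 11.35 on MCC and 4.73 on PCC. Madcam1, a homing ligand on venules, was at least 4.04-fold higher. The members nearest to level were Il7, at 7.64 on MCC and 7.64 on PCC, and the sulphotransferase and fucosyltransferase of the venules, Chst4 and Fut7, which were detected on MCC but with bounds under 2-fold.

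Each B cell gene called detected here was so on MCC alone of the pair. Of 16 with a probe, 15 were detected on MCC, 15 were at least 2-fold higher by their bound, and the summed deposited intensity was 13528 on MCC, 124 on PCC and 3586 on CCC. Fcmr, the IgM receptor, had 3146 on MCC, 1.03 on PCC and 1067 on CCC. Cd79b, a signalling chain of the B cell receptor, had 2655 on MCC, 1.20 on PCC and 631 on CCC, and the coreceptor Cd22 was at least 31.9-fold higher. Pax5, the B lineage factor, was at background on both arrays. Of 7 plasma cell genes, 3 were detected, with Mzb1, which helps fold antibodies, and Irf4 at least 35.1-fold and 6.18-fold higher, and Sdc1 (CD138), which epithelium also makes, detected on PCC only.

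T cell genes were higher in the same way. Of 20 with a probe, 19 were detected, 17 were at least 2-fold higher on MCC and 0 lower, and 13 were detected on MCC only. Their summed deposited intensity was 21988 on MCC, 835 on PCC and 8026 on CCC. Cd3g, another chain of the receptor complex, stood at 11.79 on MCC and 8.50 on PCC, and the lineage factor Bcl11b was at least 48.6-fold higher. Il7r, the receptor of resting T cells, was 14.3-fold higher and Cd8b1 28.5-fold higher, while Cd8a was at background on both arrays. Cytotoxic genes were less complete, with 5 of 11 detected and 3 higher, and the granzymes Gzma, Gzmb and Gzmk and the NK receptor Ncr1 at background on both arrays. Nkg7, a granule protein, stood at 10.52 on MCC and 6.94 on PCC, and the receptor Klrd1 at 9.19 on MCC and 7.20 on PCC. Prf1, the pore-forming perforin, was nearly level, at 11.45 on MCC and 11.08 on PCC. Ptprc (CD45), carried by all leukocytes, had deposited intensities of 94.4 and 97.5 on MCC, -9.4 and 4.8 on PCC, and 97.1 and 93.5 on CCC over its 2 probes.

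Of 14 dendritic cell and MHC class II genes, 8 were detected and 6 were at least 2-fold higher on MCC. Cd74, the invariant chain, stood at 14.02 on MCC and 11.30 on PCC, H2-Eb1 at 13.06 on MCC and 9.84 on PCC, and Ciita, the factor that turns on MHC class II, was at least 18.0-fold higher. The conventional dendritic cell genes Flt3, Itgax, Xcr1 and Clec9a were at background on both arrays. Siglech, a receptor of plasmacytoid dendritic cells, stood at 10.38 on MCC and 6.63 on PCC by its brightest probe, with probe differences from 1.13 to 3.75.

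Macrophage genes did not share 1 direction. Of 18 detected of 19, 7 were at least 2-fold higher on MCC and 5 lower, with a median of 0.15 that became -0.29 with no normalization between arrays. Higher were Timd4 and Siglec1, receptors of resident tissue and lymph node macrophages, the first at least 22.4-fold and the second 13.0-fold higher. Lyz2, the lysozyme of myeloid cells, stood at 12.86 on MCC and 9.62 on PCC and the lipid carrier Apoe at 12.45 on MCC and 9.06 on PCC. Lower were Adgre1, the antigen F4/80, at 5.90 on MCC and 7.77 on PCC, Trem2, a receptor of tumour and lipid-associated macrophages, at 5.90 on MCC and 7.26 on PCC, and the endotoxin coreceptor Cd14, 2.27-fold lower. The complement gene C1qb had 9.55 on MCC and 9.52 on PCC. On CCC the list was brighter than on either, with a summed deposited intensity of 42483, against 11758 on MCC and 7534 on PCC. Of 5 alveolar macrophage genes, Chil3 and Plet1 were detected on PCC only, Marco on MCC only, and the carbonic anhydrase Car4, which capillaries also make, was 2.84-fold higher on MCC, while Siglecf was at background.

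Neutrophil genes were divided too. Of 9 detected of 16, 5 were at least 2-fold lower on MCC and 2 higher. S100a8 and S100a9, the calprotectin chains, stood at 6.42 and 5.62 on MCC and at 11.25 and 10.51 on PCC, 28.4-fold and 29.6-fold lower. Retnlg, a resistin-like protein of granulocytes, was at least 3.84-fold lower. Ltf, described above, and the chemokine receptor Cxcr2 were the higher ones, and the granule genes Ngp, Camp, Elane and Mpo were at background on both arrays. Of 6 red blood cell genes, the haemoglobin chain Hba-a1 was 5.94-fold higher on MCC, Hbb-b2 stood at 7.37 on MCC and 6.65 on PCC, and Alas2, which starts haem synthesis, was 1.87-fold higher. Of 8 platelet genes 2 were detected, Pf4 at 7.36 on MCC and 7.68 on PCC and Itga2b on MCC only with a bound under 2-fold. Of 10 mast cell and basophil genes 5 were detected. Hdc, which makes histamine, stood at 9.20 on MCC and 8.72 on PCC, the tryptase Tpsab1 at 5.96 on MCC and 6.43 on PCC, and Gata2, a factor of several blood lineages, was 2.31-fold lower. A second tryptase, Tpsb2, was detected on MCC only with a bound under 2-fold.

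**Figure D4:**
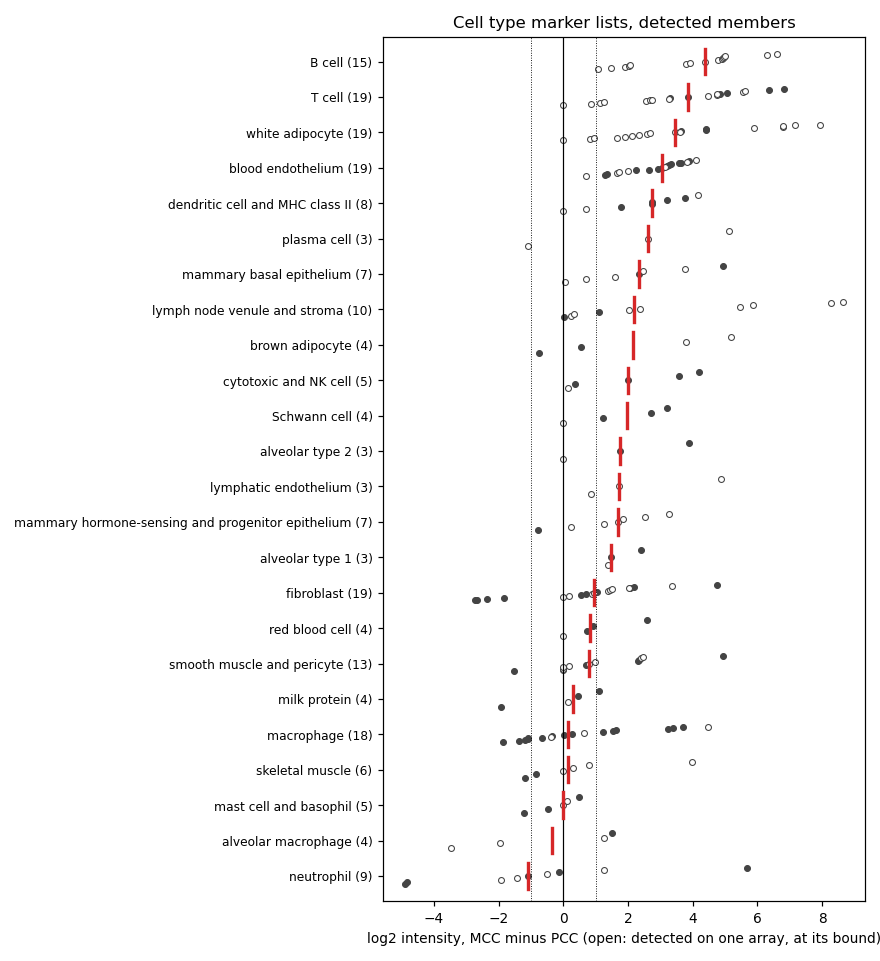
Each row is a marker list of a cell type or tissue and each point a member's log2 difference, MCC minus PCC. Points are open for genes detected on 1 array and placed at their bound, with a red bar at the list's median and dotted lines at 2-fold. The adipocyte, B cell, T cell, lymph node and blood endothelium lists lie far to the right, with medians of 3.45, 4.37, 3.84, 2.19 and 3.04.

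Nearly all detected blood vessel genes were higher. Of 22 with a probe, 19 were detected, 18 were at least 2-fold higher on MCC and 0 lower, and all 19 were detected on CCC. Kdr, Erg and Clec14a were at background on both MCC and PCC. Egfl7, a matrix protein that endothelium secretes, had deposited intensities of 3829 on MCC, 491 on PCC and 1201 on CCC. Pecam1 (CD31) stood at 10.14 on MCC and 6.92 on PCC, and Gpihbp1, which anchors lipoprotein lipase on capillaries, at 10.32 on MCC and 6.68 on PCC. The matrix protein Mmrn2 and the vessel factor Sox18 reached detection on MCC alone of the pair, at least 17.2-fold and 14.0-fold higher. Median levels were 9.52 on MCC, 6.54 on PCC and 7.68 on CCC. Of 5 lymphatic vessel genes, 3 were detected, all on MCC only, with Reln at least 3.33-fold and Fxyd6 at least 29.4-fold higher and Lyve1 with a bound under 2-fold, while Prox1 and Flt4 were at background.

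Mesenchymal lists held members on both sides. Of 13 smooth muscle and pericyte genes detected of 15, 5 were at least 2-fold higher on MCC and 1 lower. Acta2, smooth muscle actin, was 30.4-fold higher by its brightest probe, with probe differences from 1.34 to 4.92. The smooth muscle myosin Myh11 was at least 5.54-fold higher, the filament protein Des at least 5.23-fold higher, and Smtn, a protein of contractile muscle, 2.89-fold lower. Of 19 fibroblast genes detected of 20, 9 were higher and 4 lower. Thy1, carried by fibroblasts and by all mouse T cells, stood at 12.66 on MCC and 7.91 on PCC, the collagen chain Col3a1 at 8.34 on MCC and 6.16 on PCC, and Dpt, a matrix protein of adventitia, was at least 10.2-fold higher. In the other direction were Pdgfra, 6.68-fold lower, Scara5, a ferritin receptor, 6.36-fold lower, and Pi16, a marker of adventitial fibroblasts, 5.17-fold lower. Dcn, the proteoglycan decorin, stood at 13.38 on MCC and 12.83 on PCC, with probe differences from -0.78 to 0.54. Of 6 Schwann cell genes 4 were detected and 3 were higher. The myelin enzyme Cnp was 9.27-fold and the myelin protein Mbp 2.34-fold higher by their brightest probes, and Pmp22 was 6.47-fold higher. Probe differences ran from 0.74 to 3.21 for Cnp and from 1.23 to 3.77 for Mbp. Of 17 skeletal muscle genes 6 were detected, with the light chain Myl1 at least 15.7-fold higher on MCC and Ckm, Mb and Actn3 at background. The enolase Eno3 was 2.27-fold lower and the troponin Tnni2 1.78-fold lower, while Acta1 and Atp2a1 were detected on MCC only with bounds under 2-fold.

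Keratin and junction genes of simple epithelium leaned to the higher side on MCC. Of 25 with a probe, 21 were detected, 13 on MCC only, 9 were at least 2-fold higher, 1 lower and 11 neither. The median was 0.89 with bounds, and -0.21 over the 7 detected on both arrays. The summed deposited intensity of the list was 7276 on MCC, 8178 on PCC and 9444 on CCC. Cldn4, a tight junction claudin, stood at 10.57 on MCC and 5.89 on PCC, Cdh1 (E-cadherin) at 9.20 on MCC and 7.09 on PCC, and Esrp1, the splicing factor of epithelia, was at least 21.0-fold higher. Krt7 and Krt19, keratins of ducts, were at least 13.6-fold and 11.6-fold higher. Krt8, which PCC also carried, had 11.44 on MCC and 12.27 on PCC, and its partner Krt18 11.25 on MCC and 10.09 on PCC. Tjp1, which links tight junctions to actin, was 3.53-fold lower, and the protease inhibitor Spint2 was detected on PCC only with a bound under 2-fold. Stratified epithelium was split, with Tns4 and Lgals7 far lower and the interleukin antagonist Il1rn at least 2.19-fold lower. The hemidesmosome collagen Col17a1 was at least 3.43-fold higher by its brightest probe, with probe differences from 0.94 to 2.46 before bounds. Krt14, a keratin of basal cells, and Ly6d, a surface protein of keratinocytes and B cells, were detected on MCC only, at least 13.5-fold and 16.1-fold higher.

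Several transcription factors on the mammary epithelium list were higher on MCC, and the tissue they came from was not tested. Of 10 genes of hormone-sensing and progenitor cells, 7 were detected, 6 on MCC only, and 5 were at least 2-fold higher. Foxa1, the factor that opens chromatin for the oestrogen receptor, stood at 9.15 on MCC and 4.55 on PCC. Tbx3, a factor of mammary bud and luminal cells, was at least 5.70-fold higher, Esr1, the oestrogen receptor, at least 3.61-fold higher, and Elf5, the alveolar progenitor factor, at least 3.21-fold higher. Gata3, the luminal factor that T cells share, had 10.00 on MCC and 10.78 on PCC, and Pgr, Prom1 and Spdef were at background on both arrays. Of 7 basal genes detected of 8, 5 were higher, and Acta2, Myh11 and Mylk among them are smooth muscle genes too. Milk protein genes were not gained as a group, with 4 of 8 detected, Csn3 (kappa casein) 3.76-fold lower on MCC, the milk fat globule protein Mfge8 2.15-fold higher, the oxidase Xdh 1.37-fold higher, Btn1a1 on MCC only with a bound under 2-fold, and Csn2, Wap and Lalba at background.

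The defining genes of liver were not seen on MCC. Of 10 liver genes with a probe, 1 was detected, Cyp2e1, while Alb, Apoa1, Ttr, Fgb and Cps1 were at background on both arrays. Genes of liver-type secreted proteins and esterases that stood out were chosen after their values were seen. Ces1f, an esterase, had deposited intensities of 942 on MCC and -2.77 on PCC, the acid glycoprotein Orm1 780.0 on MCC and 2.47 on PCC, and haptoglobin Hp 1734 on MCC and 131 on PCC. Xist, the RNA that coats the inactive X chromosome of female cells, had deposited intensities of 307 and 334 on MCC over its 2 probes, 36.7 and 39.2 on PCC, and 86.1 and 96.1 on CCC. It was thus clearly detected on MCC and CCC and at the detection limit on PCC, although every array carries the label of female mice.

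The lists differed in how many of their members detected on MCC and not PCC were present on the third array. Of the 1374 genes detected on MCC and not on PCC, 554 (40.3%) were detected on CCC. Among list members so gained, CCC detected 7 of 7 blood endothelium genes, 10 of 13 T cell genes (76.9%), 10 of 15 B cell genes (66.7%) and 5 of 8 lymph node genes (62.5%). It detected 1 of 16 adipocyte genes (6.25%), the lipase Lpl, 1 of 13 simple epithelium genes (7.69%), 1 of 6 hormone-sensing mammary genes (16.7%) and none of 5 basal mammary genes. Of members below detection on PCC, those of fat and epithelium were thus mostly undetected on CCC, and those of vessels and lymphoid cells mostly detected. Epithelial genes that PCC did carry were present on CCC as well, such as Krt8, with deposited intensities of 1587 on MCC, 5562 on PCC and 6304 on CCC. The levels on CCC were lower for most, with median levels of the B cell list of 10.25 on MCC, 4.80 on PCC and 6.81 on CCC. Of the 357 genes at least 4-fold higher on MCC among those both arrays detected, CCC detected 351 (98.3%), near the 98.9% of all genes detected on both, with medians of 10.34 on MCC, 7.03 on PCC and 8.44 on CCC.

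**Figure D5:**
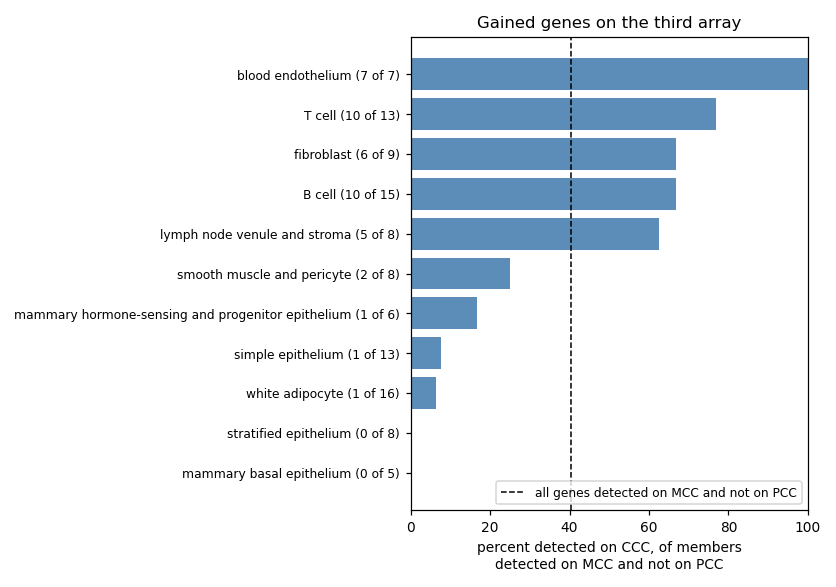
For each list, the bar gives the percent of its members detected on MCC and not on PCC that were also detected on CCC, with their numbers, and the dashed line marks the 40.3% of all 1374 such genes. Blood endothelium (100%) and T cell (76.9%) genes lie above the line, adipocyte (6.25%) and simple epithelium (7.69%) genes below it.

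Some transcription factors were chosen after their values were seen, so they illustrate the division above and are no support for it. Foxc1, a forkhead factor of mesenchyme and basal-like breast cancer, had deposited intensities of 12.5 on MCC, 1115 on PCC and 1054 on CCC. Sox9, a factor of progenitors, stood at 6.14 on MCC and 10.26 on PCC and Snai1, which represses E-cadherin, at 5.82 on MCC and 9.09 on PCC. Among factors of the gained tissues, Mef2c, used by B cells and muscle, stood at 11.03 on MCC and 5.94 on PCC, and Nr1h3, the liver X receptor of macrophages and fat, at 10.18 on MCC and 5.95 on PCC. Genes bright on PCC and CCC were chosen in the same way. The gap junction protein Gja1 had 1159.6 on MCC, 18369.8 on PCC and 17215 on CCC. Wfdc2, a secreted protein of carcinoma cells, had 1645 on MCC, 21472 on PCC and 15786 on CCC. Their levels on MCC were 10.95 and 11.49, far above the lowest detected level. Which cells made them on MCC was not tested.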

How the data were processed

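Illumina mouse BeadChips measured RNA of sorted 4T1 cells, 1 array per label. The authors deposited non-normalized probe intensities (software GenomeStudio per the submitters' processing notes, with no version named there) and a detection p-value per probe and array, per the file headers. Values below 0 made up 24.0% of MCC, 28.3% of PCC and 26.2% of CCC, which a background subtraction leaves. In the authors' scaled table each column is a straight line of these intensities (slopes 1.53 on MCC, 0.926 on PCC and 0.865 on CCC, medians 35.1, 42.9 and 32.0), by a method not stated.

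Background was corrected through the detection p-values with neqc of limma 3.58.1 (R 4.3.3), which adds an offset of 16, quantile-normalizes the 3 arrays and takes log2. Counting and plotting used Python 3.11.15 (numpy 2.4.6, pandas 2.3.3, matplotlib 3.10.9). Of 25697 probes, 23978 have 1 gene symbol in the platform annotation, 0 several and 1719 none. For 23962 of the named probes the gene ID was found in RefSeq (GRCm38.p6). The symbol given there was used, whether or not it differed. A gene is represented by its detected probe with the highest mean level. The pooled SD between probes of a gene was 0.43 (log2) over 1560 genes, of which 12.9% spanned more than 1.

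The members and the 48 gene lists were chosen with earlier results of these data known. The text names the 12 highest and 12 lowest genes of those both arrays detected, the 10 largest bounds per direction, the 8 brightest nearly level genes, up to 3 extreme members per direction and the brightest member of every list, and some preset markers. Other list members are examples chosen after their values were seen. Counting was checked on simulated arrays. The number of arrays limits precision, and the alternatives tried are in the closing section.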

Additional observations from a re-analysis of the deposited data

Results flagged for a closer look

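Probes with no gene symbol entered no comparison. Of these 1719 probes, 107 were detected on MCC and not on PCC, 79 on PCC and not on MCC, and 521 on both. They drew attention because they carry signal on MCC that is below detection on PCC, outside the named genes. They are not tied to a gene or tissue here.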

How the results depend on the processing

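No alternative turned the direction of a named gene past 2-fold, while medians near 0 changed sign for the cell cycle brakes, respiratory chain, macrophage, growth factor receptor and skeletal muscle (-0.03 with no filter) lists. With quantile normalization over MCC and PCC alone, the 4 counts, all 35 list medians and all 281 named genes moved by less than the pooled SD between probes (counts by less than 1.5 times). Scaling to the 75th percentile moved no list median or count by that much, and 33.5% of the genes past 2-fold were then higher. With no normalization between arrays, 477 genes passed 2-fold in the higher direction and 2739 in the lower, and list medians became -3.35 (mitosis), -0.41 (cell cycle brakes), -1.86 (matrix), -2.01 (glycolysis), -1.80 (hypoxia), -2.89 (ERK output), -1.77 (chaperones), -2.19 (ATF4), -1.47 (cholesterol), 0.64 (fatty acid oxidation), -0.73 (respiratory chain), -0.80 (ribosome), -1.20 (proteasome), -1.59 (immediate early), -0.68 (interferon), 2.71 (adipocyte), 3.81 (B cell), 3.23 (T cell), 1.42 (cytotoxic), 1.97 (MHC class II), -0.29 (macrophage), 2.48 (endothelium) and 1.65 (mammary basal). That setting moves the median of all genes itself. With no filter on dim probes, 2021 genes were higher, genes cannot be detected on 1 array only, and medians became -2.15 (mitosis), 2.75 (lymph node), 5.30 (B cell), 4.30 (T cell), 0.37 (cytotoxic), 0.96 (MHC class II), -0.30 (neutrophil) and 1.26 (smooth muscle). An offset of 50 gave -1.10 (secreted factors), 2.87 (adipocyte), 1.70 (lymph node), 3.75 (B cell) and 2.59 (endothelium). A detection p under 0.05 gave 0.23 (growth factor receptors, -0.32 otherwise), 2.68 (lymph node), 4.91 (B cell), 1.34 (cytotoxic), -0.59 (neutrophil) and 1.44 (fibroblast). The authors' table gave 3.89 (B cell). The mean over probes gave 3.21 (B cell) and 3.29 (T cell). The cause of the other shifts was not tested. No paired analysis was possible because each label has 1 array. Intensity over background limits every bound.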
